A study of Mus musculus with 6 samples.

Results

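The genes described here are 39 genes of the cell cycle and of DNA replication, followed in mouse regulatory T cells (Tregs), the CD4 T cells that restrain immune responses. They were chosen by name as genes of the cycle, with earlier results of these data already known. Every probe set that the array's annotation gives to one of them alone was taken. The 21 G1/S genes act in the decision to replicate and in DNA synthesis, and the 18 G2/M genes act in mitosis. Of the 39 genes, 38 were measured, by 92 of the 45101 probe sets, and 1, Ccnb1 (cyclin B1), was not analysed here. After the dimmest genes were left out, 31 of the 39 were tested (17 G1/S and 14 G2/M) among 10916 genes of 18193 in all.

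CD4+CD25+FoxP3+ cells had been sorted by flow cytometry, out of spleen and lymph node of C57Bl/6 mice aged 8 to 11 weeks. All groups carried the FoxP3GFP reporter. The WT vehicle group held A2AR+/+FoxP3GFP cells kept for 18 h in medium with DMSO. The KO vehicle group held A2AR-/-FoxP3GFP cells, which lack the adenosine receptor A2AR (the labels name no Cre or tissue limit), kept for 18 h with DMSO. The WT ATL1222 group held A2AR+/+FoxP3GFP cells given 10 nM ATL1222, an agonist selective for that receptor, from the start of the 18 h. Each group had 2 arrays, which the labels call biological replicates of unactivated cells. The labels do not say whether replicates came from separate mice, so each p-value covers the spread between 2 arrays of a group, which may be technical. No group here combines the knockout with ATL1222.

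A resting lymphocyte enters the cycle when D-type cyclins with Cdk4 or Cdk6 phosphorylate the retinoblastoma protein and free E2F factors, which switch on the genes of DNA synthesis. The MCM proteins are loaded on origins in G1 and become the replicative helicase, and ribonucleotide reductase and thymidylate synthase supply the nucleotides. Mitotic genes are switched on later, Cdk1 with cyclins A and B drives mitosis, and some mitotic proteins are destroyed at its exit. Tregs divide in the body, whereas T cells held in culture without stimulation seldom do.

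Promoters of the G1/S and G2/M genes differ in short elements that are known from the study of the cycle. In G1/S promoters the E2F element was searched as TTTCCCGC or TTTGGCGC, and in G2/M promoters the cell cycle genes homology region (CHR) as TTTGAA, each on both strands. The window was 250 bases before to 50 bases after the start given by RefSeq on GRCm38.p6, and 31 of the 39 genes had an entry. The 8 others were Tpx2, Ccna2, Kif20a, Ccnd2, Rb1, Myc, Aurkb and Mcm4. The E2F letters were in 7 of 17 G1/S promoters, in 0 of 14 G2/M promoters and in 1.56% of all 32851 promoters of this length. The CHR letters were in 10 of 14 G2/M promoters, in 2 of 17 G1/S promoters and in 17.9% of all promoters. E2f3 was the 1 gene with both. A match describes letters and does not show a site in use. The stretches below are parts before the start that hold a match, in genes named further on, written 5′ to 3′ on the strand of the gene, with the matched letters in capitals. GCGGGAAA and TTCAAA are the same elements read on the other strand. Mcm6, Cdk1 and Top2a hold 2 matches before the start, of which 1 is shown. The first 4 are E2F matches and the last 5 are CHR matches.
Mcm6, chr1:128359715-128359782, minus strand: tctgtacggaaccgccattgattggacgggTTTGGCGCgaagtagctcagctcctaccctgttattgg
Mcm7, chr5:138172011-138172078, minus strand: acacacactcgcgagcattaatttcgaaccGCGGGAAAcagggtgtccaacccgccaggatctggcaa
Cdc6, chr11:98907983-98908050, plus strand: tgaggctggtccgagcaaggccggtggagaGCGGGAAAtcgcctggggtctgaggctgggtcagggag
Cdk2, chr10:128705154-128705221, minus strand: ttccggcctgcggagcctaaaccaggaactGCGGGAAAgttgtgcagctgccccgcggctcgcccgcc
Ccnb2, chr9:70421686-70421751, minus strand: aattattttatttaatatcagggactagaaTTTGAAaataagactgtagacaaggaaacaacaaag
Cdk1, chr10:69352913-69352957, minus strand: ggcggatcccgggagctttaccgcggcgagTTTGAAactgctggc
Cdc20, chr4:118437344-118437391, minus strand: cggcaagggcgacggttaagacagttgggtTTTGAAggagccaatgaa
Mki67, chr7:135716442-135716507, minus strand: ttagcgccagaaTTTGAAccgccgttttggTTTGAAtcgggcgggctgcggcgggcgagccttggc
Top2a, chr11:99024190-99024242, minus strand: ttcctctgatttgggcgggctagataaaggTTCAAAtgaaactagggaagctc

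Values are array signals on a linear scale, brought by the authors to the same trimmed mean on every array, and a gene was read at its probe set with the highest mean. Arrays of the same group correlated across genes with Pearson r from 0.958 to 0.967 and arrays of different groups with r from 0.953 to 0.971, so the groups did not stand apart. Of 7 Treg markers, Ikzf2, Nrp1, Ctla4, Il2ra, Cd3e and Cd4 were above the limit for dim genes, while Foxp3 lay below it, with signals from 7.18 to 53.5. Of 6 measured B cell markers, 4 were above the limit, Cd79a and Blnk were below it, and their summed signal was 7026 to 8147 in WT vehicle, 7463 to 7658 in KO vehicle and 4883 to 4919 in WT ATL1222. Most of that sum was Ighm, the immunoglobulin heavy chain gene, at 4198 to 7539. Of 6 measured markers of CD8 T and NK cells, 3 were above the limit, Cd8a, Ncr1 and Klrd1 were below it, and the sum was 530.8 to 547.8 in WT vehicle, 680.6 to 718.2 in KO vehicle and 586.0 to 620.0 in WT ATL1222. Of 7 myeloid markers, 1 was above the limit, with a sum of 265.5 to 434.2 over the arrays, and of 5 dendritic cell markers 1, with 208.6 to 363.6. Of 5 stromal markers, 2 were above it, with a sum of 734.2 to 735.1 in WT vehicle, 560.3 to 794.8 in KO vehicle and 658.2 to 713.1 in WT ATL1222, and of 3 measured erythroid markers 0. The receptor's own gene is left out, and so the genotypes rest on the labels.

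Transcripts of the replication machinery were plainly detected in these unstimulated cells, while several genes of S phase entry and mitosis were too dim to test. The 17 G1/S genes tested had a median log2(signal + 16) of 9.01 to 9.35 on the 6 arrays, and the 14 G2/M genes one of 7.23 to 7.69, against 8.47 to 8.53 for all genes tested. Probes differ in how brightly they report an RNA, so these levels do not rank the genes by abundance. Below the limit, a log2 mean of 6.45 or a signal of about 71.2, lay 7 measured genes, whose 16 probe sets ran from 1.2 to 130.7. These were Ccne1 (cyclin E1), Cdc6 (the helicase loader), E2f1 and Tyms (thymidylate synthase) among the G1/S genes, and the spindle checkpoint kinases Bub1 and Bub1b and the kinesin Kif20a among the G2/M genes. E2f1, an activating E2F factor, read 57.1 and 88.6 in WT vehicle, 44.9 and 51.3 in KO vehicle and 67.0 and 22.1 in WT ATL1222. In bulk samples, fewer cycling cells and less RNA per cell cannot be told apart.

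**Figure D1:**
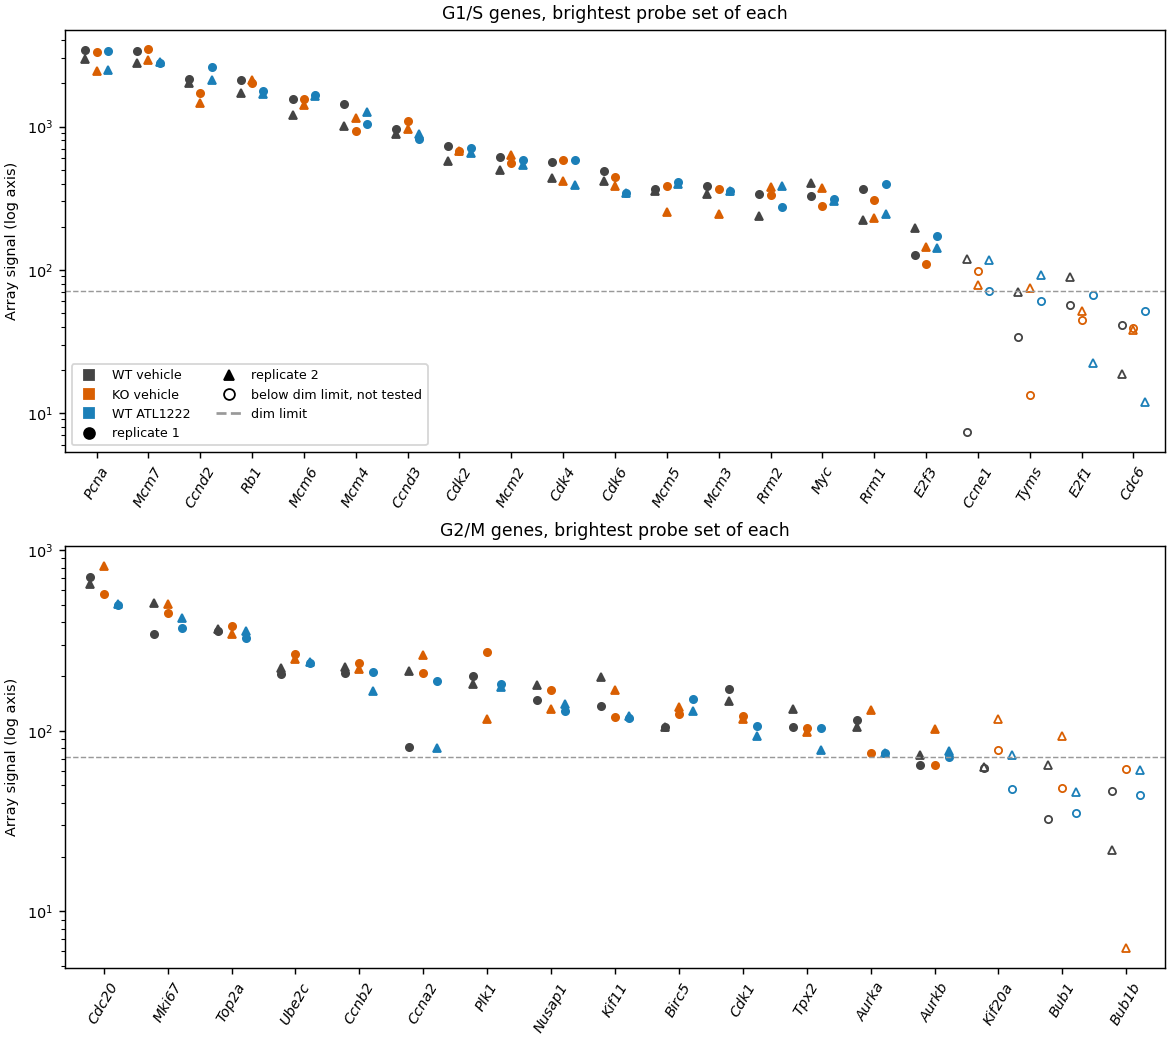
Array signal (log axis) of the 38 measured genes on each of the 6 arrays, G1/S genes above and G2/M genes below, each at its brightest probe set, with circles for replicate 1 and triangles for replicate 2. Open symbols are the 7 genes below the limit for dim genes (dashed line, a signal of 71.2), and the 3 groups lie close together for most genes.

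The first comparison, KO vehicle against WT vehicle, asks what loss of the receptor changes without agonist. None of the 31 genes passed limma's test at an adjusted p of 0.05 (0 of 31, where 3 of 10916 genes passed in all, 0.0275%, all 3 lower). At an unadjusted p under 0.05 it was 1 of 31, Ccnd2, beside 3.89% of all genes. The median log2 difference was -0.10 for the G1/S genes and 0.01 for the G2/M genes, beside 0.005 for all genes. Without replicate 1 of WT vehicle the G1/S median was 0.17. Of the G1/S genes 7 of 17 were positive and of the G2/M genes 8 of 14, beside 50.9% of all genes. The groups did not overlap for 5 of the 31, of which Ccnd2, Cdk1 and Tpx2 were lower and Birc5 and Ube2c higher in KO vehicle, beside 29.6% of all genes. The sum of the CD8 T and NK cell markers was higher on both KO vehicle arrays, by the values above, and its part in these differences was not tested. With the replicate number as a block it was again 0 of 31, where 9 of 10916 genes passed (0.0824%).

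The second comparison, WT ATL1222 against WT vehicle, asks what the agonist changes in wild-type cells. Again none passed (0 of 31, where 23 of 10916 genes passed, 0.211%, 22 of them higher), and 1 of 31, Cdc20, had an unadjusted p under 0.05, beside 5.03% of all genes. The fit with the replicate block also passed 0 of 31, where 79 genes passed (0.724%). The G1/S median was -0.02 (0.13 without replicate 1 of WT vehicle), with 7 of 17 positive, and all genes had a median of -0.008, with 48.6% positive. The G2/M median was -0.14, with 3 of 14 positive. The 2 arrays of WT ATL1222 lay below both of WT vehicle for 7 of the 14 G2/M genes (Cdk1, Aurka, Plk1, Cdc20, Tpx2, Nusap1 and Kif11) and above for 2 (Birc5 and Ube2c), beside 16.3% and 14.5% of all genes. For the G1/S genes it was 3 below (Ccnd3, Cdk6 and Myc) and 2 above (Mcm5 and Mcm6). These counts take each gene at its brightest probe set. Over all 19 G2/M probe sets above the limit 7 were positive, with a median of -0.09, and over the 38 G1/S probe sets 19, with a median of 0.01. Within replicate 1 the G2/M median was -0.07 and within replicate 2 it was -0.34, and without replicate 1 of WT vehicle it was -0.36. The B cell and stromal marker sums were also lower and the CD8 T and NK cell sum higher on both WT ATL1222 arrays, by the values above, and their part in these differences was not tested.

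The third comparison, WT ATL1222 against KO vehicle, shares its arrays with the other 2 and is no separate evidence. No member passed the test (0 of 31, where 109 of 10916 genes passed, 0.999%, 96 of them higher), and 2 of 31, Ccnd2 and Cdc20, had an unadjusted p under 0.05, beside 8.48% of all genes. With the replicate number as a block, Ccnd2 passed as higher with ATL1222 (1 of 31, where 264 genes passed, 2.42%, 205 of them higher, 1.88%). The G2/M median was -0.18 with 1 of 14 positive, and the G1/S median 0.02 with 9 of 17 positive, beside -0.02 and 46.6% for all genes. WT ATL1222 lay below KO vehicle without overlap for 6 of 14 G2/M genes and above for 0, beside 20.9% and 17.4% of all genes. The 6 were Mki67, Ccnb2, Ccna2, Cdk1, Cdc20 and Ube2c, each at its brightest probe set. At the other Ccna2 probe set above the limit WT ATL1222 was the higher, at 131 and 177 against 124 and 130. Over all 19 G2/M probe sets above the limit 4 were positive, with a median of -0.13. The B cell, CD8 T and NK cell, myeloid and erythroid marker sums were lower on both WT ATL1222 arrays than in KO vehicle. The dendritic cell sum was higher, and the part of these sums in the differences was not tested.

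At the brightest probe sets, these counts of 0 leave bounded room for a change in the G1/S genes and more in the G2/M genes. For all 17 G1/S genes the 95% interval of the log2 difference lay inside -1 to 1, that is, inside a change of 2 times, in each of the 3 comparisons. For the G2/M genes, which are dimmer, that held for 9, 7 and 11 of 14, beside 75.1%, 74.3% and 71.7% of all genes. Some G1/S intervals reached further at other probe sets above the limit. For Mcm3 one ran from -0.39 to 2.54 for the agonist against WT vehicle. For Mcm2 one ran from -1.31 to 0.63 for KO vehicle against WT vehicle. Standard errors of the 31 genes had a median of 0.231 and reached 0.461 for Aurkb, which encodes a kinase of chromosome attachment and cytokinesis.

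**Figure D2:**
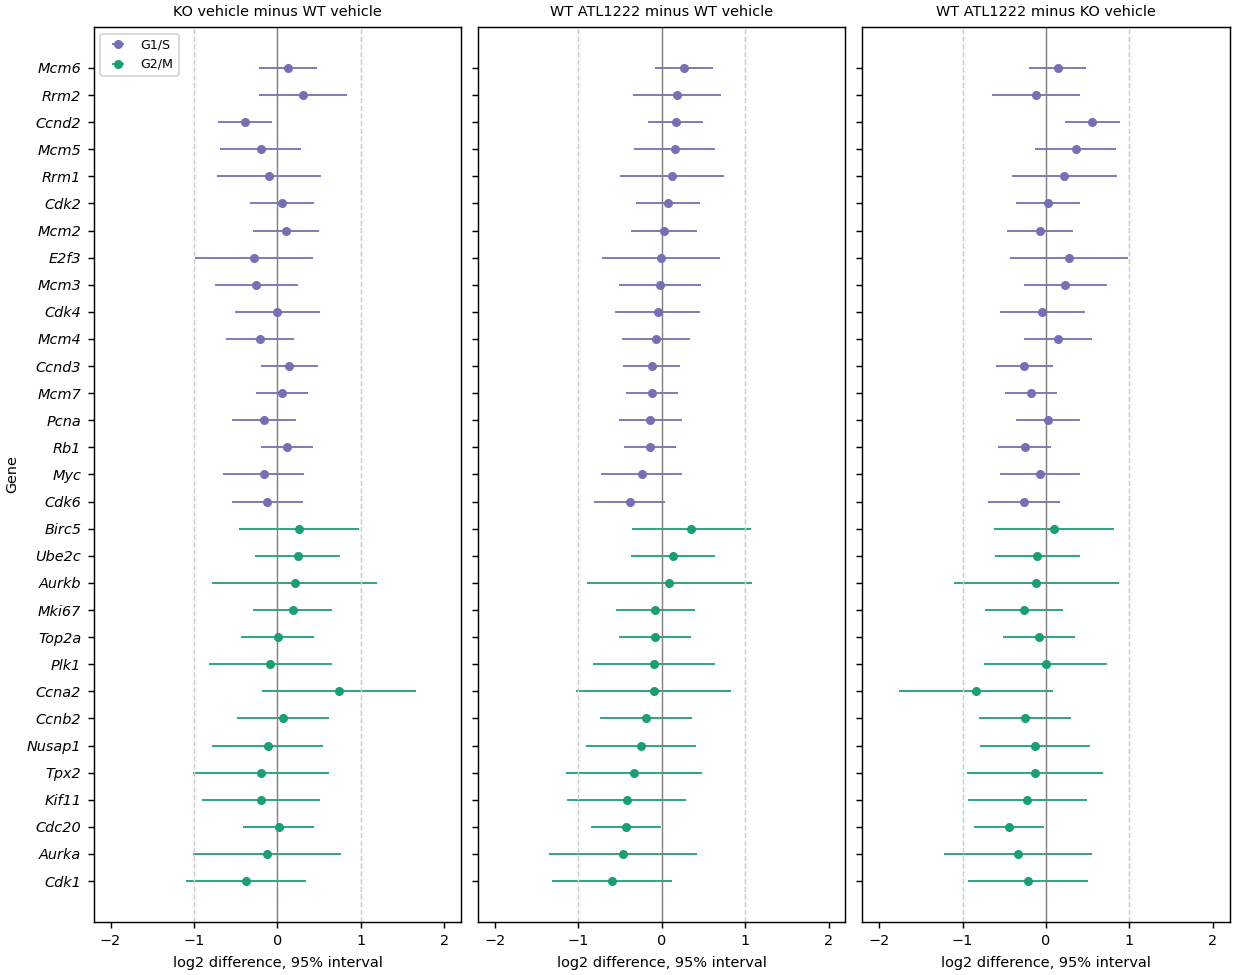
Log2 difference of log2(signal + 16) with its 95% interval for each of the 31 genes tested, in the 3 comparisons, G1/S genes above (purple) and G2/M genes below (green), in order of the WT ATL1222 minus WT vehicle value within each phase. Each gene is shown at its brightest probe set. Dashed lines mark -1 and 1, and all 17 G1/S intervals lie between them.

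Among the D cyclins and their kinases, each at its brightest probe set, Ccnd2 differed most between the groups. Cyclin D2 links growth signals to Cdk4 and Cdk6. Ccnd2 read 2151 and 2015 in WT vehicle, 1710 and 1468 in KO vehicle and 2589 and 2111 in WT ATL1222, so both KO vehicle arrays were below the 4 others and WT ATL1222 overlapped WT vehicle. The log2 difference was -0.39 ± 0.152 (SE) for KO vehicle against WT vehicle (adjusted p 1.00, or 0.353 once replicate number was a block) and 0.17 ± 0.152 for WT ATL1222 against WT vehicle (adjusted p 0.998). Between WT ATL1222 and KO vehicle it was 0.56 ± 0.152, an adjusted p of 0.143, and 0.59 within replicate 1 and 0.52 within replicate 2. The blocked fit gave it an SE of 0.106 and an adjusted p of 0.0123.

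Ccnd2 has 7 probe sets, 6 of them above the limit. WT ATL1222 minus KO vehicle was positive at all 6, from 0.19 to 0.56, and the groups did not overlap at 4. WT ATL1222 minus WT vehicle was also positive at all 6, from 0.06 to 0.34. KO vehicle minus WT vehicle was negative at 5 of 6, from -0.39 to 0.15, and the mean of all 7 probe sets gave 0.03. That mean includes the dimmest, which read 6.28 and 86.2 in WT vehicle. Probe sets of 1 gene read the same RNA on the same arrays and are not replicates.

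**Figure D3:**
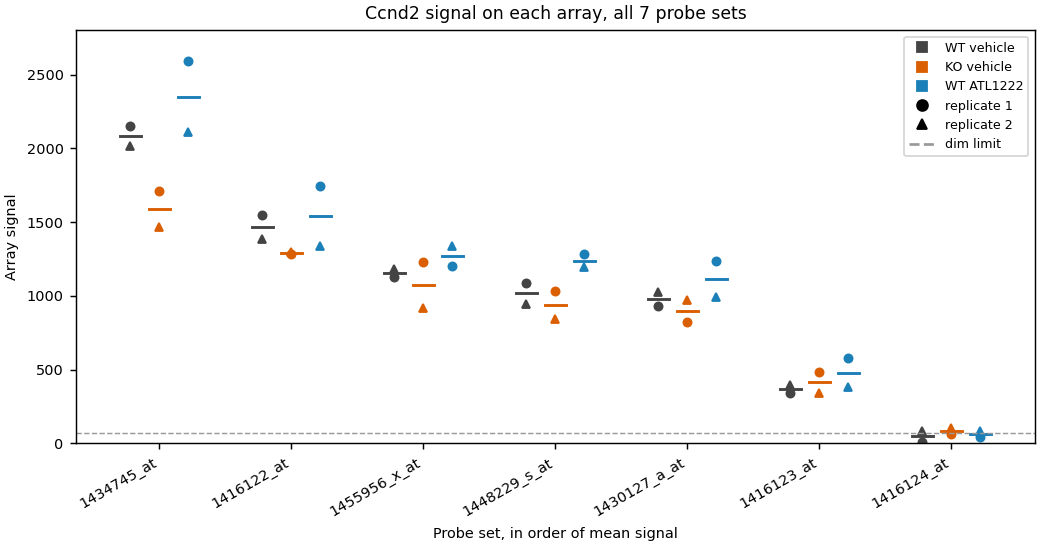
Ccnd2 signal (linear axis) at its 7 probe sets, with a symbol for each array and a bar for each group mean. At the 6 probe sets above the limit (dashed line) the WT ATL1222 mean lies above the KO vehicle mean, with differences on the log2 scale from 0.19 to 0.56.

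The other D cyclin of the 39 genes, Ccnd3, and the kinases Cdk2, Cdk4 and Cdk6 had no difference past the test. Ccnd3 read 967 and 891 in WT vehicle, 1086 and 967 in KO vehicle and 819 and 888 in WT ATL1222. Its log2 difference was 0.14 ± 0.159 for KO vehicle and -0.12 ± 0.159 for WT ATL1222 against WT vehicle. A second Ccnd3 probe set above the limit gave -0.04 and 0.16 in the same order, with overlapping groups. The dimmest of its 3 read 97.8 and 72.6 in WT vehicle, 137 and 120 in KO vehicle and 57.2 and 79.7 in WT ATL1222. There KO vehicle minus WT vehicle was 0.52 ± 0.443 and WT ATL1222 minus KO vehicle -0.78 ± 0.443. Neither pair of groups overlapped there, and neither difference passed the test. Cdk6, a partner of the D cyclins, had the lowest G1/S value with the agonist: 492 and 417 in WT vehicle, 447 and 386 in KO vehicle, and 342 and 344 in WT ATL1222, a log2 difference from WT vehicle of -0.39 ± 0.2 (adjusted p 0.998). Both WT ATL1222 arrays were below the 4 others for Cdk6 at this probe set, a difference that did not pass the test. At its other probe set above the limit Cdk6 read 372 and 285, 354 and 236, and 358 and 272 in the same order, a difference of -0.06 with overlapping groups. Cdk4, the other D cyclin kinase, ran from 392.3 to 587.2 and Cdk2, which pairs with cyclins E and A, from 578 to 727. Their log2 differences against WT vehicle at these brightest probe sets lay between -0.05 and 0.07. The other Cdk4 probe sets above the limit gave -0.03 and 0.03 in KO vehicle and -0.13 and -0.34 in WT ATL1222. The groups overlapped at each.

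Of the retinoblastoma and E2F branch and Myc, none passed. Rb1, the brake on E2F, read 2127 and 1728 in WT vehicle, 2027 and 2130 in KO vehicle and 1777 and 1699 in WT ATL1222, so the groups overlapped in both comparisons with WT vehicle. E2f3, an activating E2F factor, read 127 and 194 in WT vehicle, 110 and 144 in KO vehicle and 173 and 141 in WT ATL1222. It had the third lowest value of the 31 genes in KO vehicle against WT vehicle, -0.28 ± 0.329, with overlapping groups. That value was -0.005 without replicate 2 of WT vehicle and -0.56 without replicate 1. Myc, a driver of growth and of cell cycle entry, read 329 and 401 in WT vehicle, 277 and 374 in KO vehicle and 310 and 301 in WT ATL1222, a log2 difference of -0.24 ± 0.225 for the agonist. Both agonist arrays lay below both WT vehicle arrays for Myc, and the difference did not pass the test.

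Pcna, the sliding clamp of DNA polymerase, and the MCM helicase subunits Mcm2, Mcm4, Mcm6 and Mcm7 were brighter than the median gene tested on every array, while Mcm3 and Mcm5, from 245 to 409, lay around it. Pcna read 3429 and 2974 in WT vehicle, 3323 and 2453 in KO vehicle and 3372 and 2499 in WT ATL1222. The spread between replicates exceeded that between groups, with log2 differences of -0.16 ± 0.177 for KO vehicle and -0.14 ± 0.177 for WT ATL1222. Mcm7 read 3362 and 2788 in WT vehicle, 3458 and 2922 in KO vehicle and 2792 and 2834 in WT ATL1222, with overlapping groups against WT vehicle. Mcm6 had the highest G1/S value with the agonist, 0.27 ± 0.16 (adjusted p 0.998), from 1561 and 1195 in WT vehicle, 1566 and 1423 in KO vehicle and 1659 and 1634 in WT ATL1222. Mcm7 and Mcm6 are subunits of the same ring. At these brightest probe sets they differed from WT vehicle in opposite directions with the agonist (-0.12 and 0.27). In KO vehicle both were positive there (0.05 and 0.13), none past the test. The other probe sets of Mcm7 above the limit gave -0.14, -0.02 and 0.05 in KO vehicle and -0.10, -0.34 and -0.02 in WT ATL1222. At the one with -0.34, both WT ATL1222 arrays, 611 and 572, lay below both of WT vehicle, 813 and 697. The second Mcm6 probe set above the limit gave -0.10 in KO vehicle and 0.11 in WT ATL1222.

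At their brightest probe sets the other MCM subunits had log2 differences from -0.25 to 0.10 in KO vehicle and from -0.07 to 0.16 in WT ATL1222, each against WT vehicle. Second probe sets above the limit gave -0.34 and 0.26 for Mcm2, -0.11 and 0.23 for Mcm4 and 0.06 and -0.04 for Mcm5, in the same order. Mcm3 was the G1/S gene whose probe sets disagreed most. At the brightest, a probe set whose name ending s_at marks probes that match more than 1 transcript, it read 385 and 337 in WT vehicle, 366 and 245 in KO vehicle and 357 and 353 in WT ATL1222. At the dimmest of its 3 probe sets above the limit it read 193 and 21.0, 158 and 97.5, and 138 and 205 in the same order, and the log2 difference for the agonist was 1.07 there and -0.02 at the brightest. Replicate 2 of WT vehicle, at 21.0, was the lowest array at that probe set.

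Ribonucleotide reductase makes the deoxynucleotides for DNA synthesis, with Rrm1 as its large and Rrm2 as its small, S-phase subunit. Rrm2 read 340 and 239 in WT vehicle, 334 and 379 in KO vehicle and 273 and 385 in WT ATL1222. Its log2 differences were 0.30 ± 0.246 in KO vehicle and 0.18 ± 0.246 in WT ATL1222, with overlapping groups. These values are from its brightest probe set. Its second above the limit read 172 and 144 in WT vehicle, 226 and 180 in KO vehicle and 151 and 190 in WT ATL1222. The differences there were 0.33 ± 0.303 in KO vehicle, without overlap, and 0.10 ± 0.303 in WT ATL1222, with overlap. Rrm1 at its brightest probe set ran from 222 to 398, with the higher value on replicate 1 in each group. Its second probe set above the limit did not keep that order. There it read 102 and 192 in WT vehicle, 102 and 167 in KO vehicle and 101 and 85.6 in WT ATL1222.

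Cdk1, the kinase that drives mitosis, had the lowest value of the 31 genes with the agonist. It read 170 and 147 in WT vehicle, 121 and 116 in KO vehicle and 106 and 93.3 in WT ATL1222. Both other groups lay wholly below WT vehicle. The log2 difference was -0.37 ± 0.335 in KO vehicle and -0.59 ± 0.335 in WT ATL1222 (adjusted p 0.998, interval -1.31 to 0.13), which did not pass the test.

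The cyclins of G2 and mitosis showed no such order. Ccnb2, cyclin B2, read 208 and 225 in WT vehicle, 236 and 219 in KO vehicle and 213 and 167 in WT ATL1222. Ccna2, cyclin A2, had the largest difference of the 31 genes in KO vehicle, 0.74 ± 0.431 (adjusted p 1.00), from 80.9 and 216 in WT vehicle, 208 and 264 in KO vehicle and 188 and 80.4 in WT ATL1222. That value depends on 1 array: without replicate 1 of WT vehicle it was 0.11, and without replicate 2 it was 1.37. The other Ccna2 probe set, also above the limit, read 109 and 185, 124 and 130, and 131 and 177 in the same order, a difference of -0.15 for KO vehicle.

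Cdc20, the activator of the anaphase-promoting complex, had the smallest p of the G2/M genes in both comparisons of ATL1222. At its brightest probe set, whose name ending x_at marks probes that may bind other transcripts too, it read 707 and 651 in WT vehicle, 571 and 823 in KO vehicle and 497 and 505 in WT ATL1222. Both agonist arrays were below the 4 others, with a log2 difference from WT vehicle of -0.43 ± 0.197 (unadjusted p 0.0485, adjusted p 0.987) and from KO vehicle of -0.44 ± 0.197 (adjusted p 0.55). The other Cdc20 probe set above the limit read 214 and 232 in WT vehicle, 350 and 325 in KO vehicle and 249 and 212 in WT ATL1222. There the agonist differed from WT vehicle by 0.04 and from KO vehicle by -0.52, and KO vehicle was above WT vehicle by 0.56. So the probe sets had like differences between WT ATL1222 and KO vehicle and unlike ones against WT vehicle.

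Of the mitotic kinases, Aurka and Aurkb were close to the limit for dim genes and Plk1 was above it. Aurka, the kinase of the spindle poles, read 114 and 105 in WT vehicle, 75.1 and 130 in KO vehicle and 75.2 and 74.9 in WT ATL1222, a difference of -0.46 ± 0.413 with the agonist. Plk1, which acts from mitotic entry to cytokinesis, read 200 and 182 in WT vehicle, 272 and 116 in KO vehicle and 181 and 175 in WT ATL1222, so its extremes were the 2 arrays of KO vehicle. Birc5, survivin, a partner of Aurkb, was the G2/M gene with the highest value for the agonist, 0.35 ± 0.334 (adjusted p 0.998). It read 105 and 105 in WT vehicle, 123 and 135 in KO vehicle and 151 and 129 in WT ATL1222, and so was above WT vehicle in both other groups.

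At their brightest probe sets, the antigen and enzyme most used to mark dividing cells differed from WT vehicle by less than their error. Mki67, which encodes the Ki-67 antigen, read 342 and 511 in WT vehicle, 450 and 507 in KO vehicle and 372 and 421 in WT ATL1222. Its log2 difference was 0.18 ± 0.22 in KO vehicle and -0.08 ± 0.22 in WT ATL1222, each against WT vehicle. Between WT ATL1222 and KO vehicle it was -0.26 ± 0.22 (adjusted p 0.851), without overlap. Top2a, the topoisomerase that disentangles chromosomes, read 357 and 365, 380 and 345, and 325 and 358 in the same order, with differences of 0.004 ± 0.203 and -0.08 ± 0.203. Its second probe set above the limit gave -0.36 ± 0.341 in KO vehicle and -0.16 ± 0.341 in WT ATL1222, with overlapping groups. The spindle factors Tpx2 and Nusap1 and the spindle motor Kif11 were between -0.12 and -0.20 in KO vehicle and between -0.25 and -0.42 in WT ATL1222, with standard errors of 0.309 to 0.38. The second probe set above the limit went the other way for Tpx2, at 0.34 in KO vehicle and 0.30 in WT ATL1222, and for Kif11, at 0.03 and 0.13, with overlapping groups. Ube2c, which loads ubiquitin on targets of the anaphase-promoting complex, was at 0.24 and 0.14, with a standard error of 0.235.

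By replicate number, most G1/S genes read higher on replicate 1, a contrast chosen after the values were seen. In the fit with the replicate number as a block, replicate 1 minus replicate 2 was positive for 13 of 17 G1/S genes, with a median of 0.15, and for 5 of 14 G2/M genes, with a median of -0.02, beside 56.6% and 0.04 for all genes. None of the 31 passed (0 of 31, where 99 of 10916 genes passed, 0.907%), and 4 of 31 had an unadjusted p under 0.05, beside 16.7% of all genes. Pcna had the smallest adjusted p, 0.0703, at 0.36 ± 0.0835, followed by Cdk4 at 0.46 (0.115) and Rrm1 at 0.58 (0.12). Replicate 1 was above replicate 2 in every group for 8 of 17 G1/S genes (Ccnd2, Cdk2, Cdk4, Mcm3, Mcm5, Mcm6, Pcna and Rrm1) and 2 of 14 G2/M genes (Cdk1 and Plk1), beside 24.0% of all genes. It was below in every group for Mki67, Aurkb and Kif11, beside 15.2%. Each gene is taken here at its brightest probe set, and other probe sets above the limit did not all keep this order. Replicates 1 and 2 read 102 and 192 for Rrm1 and 1129 and 1180 for Ccnd2 in WT vehicle at such a probe set. For Mcm5 they read 76.9 and 174 in WT ATL1222. The other Cdk4 probe sets above the limit were higher on replicate 1 in every group. After quantile or cyclic loess normalization 11 of 17 G1/S genes were positive, with a median of 0.08 with either, and 8 of 14 G2/M genes, with a median of 0.03 with either, so the phases lay closer together than without it. Without the WT vehicle arrays it was also 11 of 17 and 8 of 14. The poly-A control RNAs Lys, Phe and Thr were also brighter on replicate 1, by 1.41 to 2.19 times, and Dap by 1.06 to 1.43 times, and their relation to these differences was not tested.

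**Figure D4:**
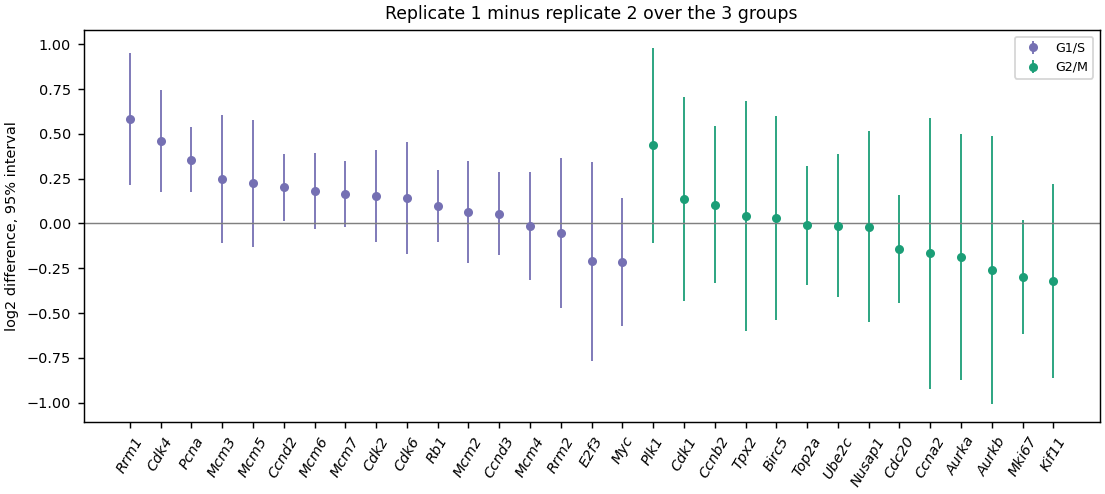
Log2 difference between replicate 1 and replicate 2, with its 95% interval, from the fit over the 3 groups with the replicate number as a block, for the 17 G1/S genes (purple) and 14 G2/M genes (green). Each gene is shown at its brightest probe set. Of the G1/S genes 13 lie above 0, and of the G2/M genes 5.

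The neighbouring genes of the cycle, 152 in 6 lists, held 127 that were tested and 2 that passed in any comparison. These were H2az1, in WT ATL1222 against each other group, and Cdc25b, in WT ATL1222 against KO vehicle. Of all genes 0.211% passed in WT ATL1222 against WT vehicle and 0.999% in WT ATL1222 against KO vehicle. In KO vehicle against WT vehicle 0.0275% passed, none of them in these lists. H2az1, listed on the array as H2afz, encodes the histone variant H2A.Z, which takes the place of H2A at many promoters. It read 9039 and 6946 in WT vehicle, 6782 and 5832 in KO vehicle and 17721 and 16130 in WT ATL1222, so both agonist arrays were far above the 4 others. It rose with ATL1222 by 1.09 ± 0.148 on the log2 scale against WT vehicle (2.13 times, adjusted p 0.00824) and was 1.42 ± 0.148 above KO vehicle (adjusted p 1.54e-04). Its other probe set read 7302 and 5792, 5483 and 5155, and 12630 and 12971 in the same order, a difference of 0.98 from WT vehicle. The call against WT vehicle was lost without replicate 1 of WT ATL1222 (adjusted p 0.133), without replicate 2 of WT vehicle (0.0812), with probe sets averaged (0.0737) and without the trend (0.661), and the call against KO vehicle was lost without the trend (0.16).

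Cdc25b, a phosphatase that activates Cdk1, was lower in WT ATL1222 than in KO vehicle. It read 1392 and 1555 in WT vehicle, 2111 and 1675 in KO vehicle and 1080 and 1156 in WT ATL1222, and the 3 groups did not overlap. The log2 difference was -0.74 ± 0.158 between WT ATL1222 and KO vehicle (adjusted p 0.0387), and 0.35 for KO vehicle and -0.39 for WT ATL1222 against WT vehicle, neither of which passed. The call was lost without replicate 1 of KO vehicle (adjusted p 0.333) and without replicate 1 (0.359) or 2 (0.146) of WT ATL1222, as well as with no filter (0.0608), with each probe set tested separately (0.105), with probe sets averaged (0.101) and without the trend (0.406).

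In the blocked fit 3 more genes of these lists passed, all higher with ATL1222, where 79 genes passed against WT vehicle (0.724%) and 264 against KO vehicle (2.42%). Cenpa, the histone variant of centromeres, was 0.65 above WT vehicle (adjusted p 0.0189, and 0.128 without the block) and 0.54 above KO vehicle (0.0282, and 0.143 without). Mxi1, which competes with Myc for Max, was 0.70 above WT vehicle (0.0147, and 0.262 without) and 0.79 above KO vehicle (0.00242, and 0.062 without). Cdt1, which loads the MCM ring, was 0.54 above KO vehicle (0.0325, and 0.196 without). At their brightest probe sets all 3 had both agonist arrays above the 4 others. Cenpa read 1588 and 1550 against 961 to 1102, Mxi1 1530 and 1267 against 723 to 965, and Cdt1 1653 and 1676 against 1016 to 1457. At the second probe set above the limit Mxi1 was again above, at 164 and 244 against 81.6 to 141. There Cenpa, at 353 and 304 against 207 to 323, and Cdt1, at 600 and 482 against 291 to 514, overlapped the others. The differences from KO vehicle at these probe sets were 0.12 for Cenpa, 0.68 for Mxi1 and 0.56 for Cdt1.

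By list, in KO vehicle and then in WT ATL1222 against WT vehicle, medians ran from -0.26 to 0.23. All genes tested had medians of 0.005 and -0.008, with 50.9% and 48.6% positive. Each gene is taken at its brightest probe set, and both comparisons share the WT vehicle arrays. The other mitotic, spindle and chromosome genes had a median of 0.13 in KO vehicle, with 27 of 39 positive, and of -0.02 in WT ATL1222, with 18 of 39 positive, beside 0.01 and -0.14 for the 14 G2/M genes. The other licensing and fork genes were at -0.009 and -0.01, with 16 of 36 positive in both comparisons. The other cyclins, kinases and CDC25 phosphatases were at 0.23, with 10 of 14 positive, and -0.05, with 5 of 14. The CDK inhibitors and pocket proteins were at 0.02 and 0.03, with 10 of 17 positive in both and 0 passing. All 11 other nucleotide supply genes tested were lower in WT ATL1222 than in WT vehicle, from -0.59 to -0.11 with a median of -0.26, and 0 of 11 passed, whereas in KO vehicle 3 of 11 were positive. The MYC network was at -0.04, with 3 of 10 positive, and 0.09, with 8 of 10.

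The largest differences in these lists that did not pass were in dim genes. Against WT vehicle, KO vehicle was above by 1.04 ± 0.525 for the kinetochore gene Ndc80, by 0.91 ± 0.36 for Skp2, a ubiquitin ligase subunit that targets CDK inhibitors, and by 0.80 ± 0.547 for the replication factor Mcm10 (adjusted p 1.00 for each). In each of the 3, replicate 1 of WT vehicle was the lowest array, at 26.4, 71.3 and 26.8. Without that array the differences were 0.09 for Ndc80, 0.42 for Skp2 and -0.04 for Mcm10, and with probe sets averaged Skp2 was at 0.06. With the agonist, the midzone kinesin Kif23 was above WT vehicle by 0.91 ± 0.394 (adjusted p 0.932), from 83.1 and 116 to 214 and 184, and the checkpoint kinase Ttk below by 1.03 ± 0.49, from 146 and 79.7 to 46.9 and 43.3.

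**Figure D5:**
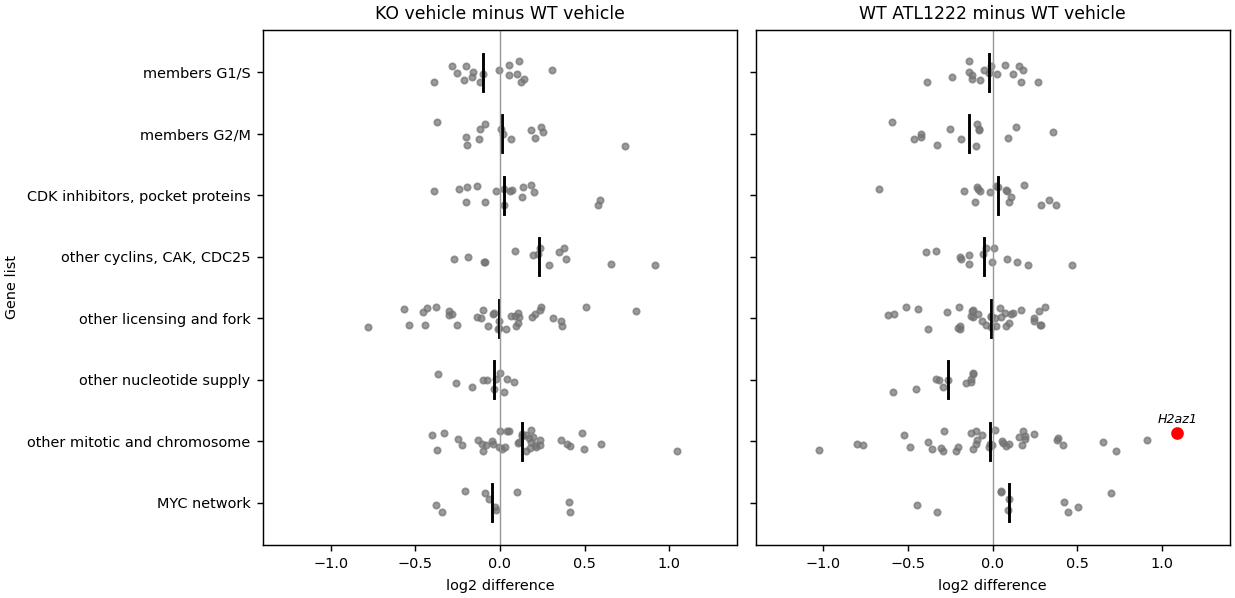
Log2 difference of each gene tested in the 39 genes (members) and in the 6 lists of neighbouring genes, for KO vehicle (left) and WT ATL1222 (right) against WT vehicle, with a black bar at each list's median and vertical scatter for visibility only. H2az1 (red) is the single gene past the adjusted p of 0.05, and the 11 other nucleotide supply genes all lie below 0 on the right.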

How the data were processed

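The values are intensities on a linear scale, deposited by the authors for 6 Affymetrix arrays and 45101 probe sets, made with GCOS per the submitters' processing notes. Per the labels, 1 µg of total RNA was labelled. The summarization algorithm is not given in the sources used here. Each array has a mean of 250.0 after the outer 2% of probe sets are left out, and this scaling was kept. Here 64 control probe sets were left out, 34945 carried a single symbol in GEO's platform table, and 34741 of these matched an Entrez gene of GRCm38.p6, used for names. A gene's value is log2(signal + 16) at its probe set with the highest mean, so differences of dim genes are understated. The lowest 40% of genes were left out.

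Groups were compared with limma 3.58.1 in R 4.3.3 (trend, all 6 arrays in 1 fit, Benjamini-Hochberg over 10916 genes), tested on simulated data. The number of arrays limits the precision. Deviations of same-numbered arrays from their group means correlated at 0.230, 0.230 and 0.147 for the 3 pairs of groups, so the replicate numbers were taken to pair arrays, and the fit with the number as a block is given where it changes a call. The pairing comes from these values, since the labels name no shared batch. Genes described with all values were those passing a test, the 3 highest and 3 lowest differences against WT vehicle, the 3 brightest of each phase, those whose probe sets differed by over 1, and Mki67, Pcna, E2f1, Rb1 and Myc. Others were named after their values were seen. The 39 genes and the lists were chosen with earlier results of these data known.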

Additional observations from a re-analysis of the deposited data

How the results depend on the processing

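The count of the 39 genes that passed was 0 under all 17 alternatives for both comparisons with WT vehicle, and for WT ATL1222 minus KO vehicle it was 0 except for 1 (Ccnd2) with the replicate block, which changed no other call among these genes. With the block, 9, 79 and 264 of all genes passed, beside 3, 23 and 109 without it. For KO vehicle minus WT vehicle the number of all genes passing was 0 with each probe set tested separately, with probe sets averaged and without the trend, and 3 to 7 with 1 array left out. For WT ATL1222 minus WT vehicle it was 35 with cyclic loess, 36 with the lowest 60% left out, 14 with no filter, 44 with the 4 arrays compared alone, 3 with probe sets averaged, 0 without the trend and 5 to 39 with 1 array left out. For WT ATL1222 minus KO vehicle it was 70 with no filter, 44 with probe sets averaged, 5 without the trend and 42 to 133 with 1 array left out. With each array left out in turn, the G1/S median ran from -0.11 to 0.17 in KO vehicle and from -0.11 to 0.13 in WT ATL1222, and the G2/M median from -0.36 to -0.13 in WT ATL1222. A lone array left in a group is assumed to vary like the others.

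Several differences that did not pass changed sign, and the cause was not tested. With probe sets averaged, KO vehicle minus WT vehicle became 0.0323 for Ccnd2, 0.0737 for Aurka, 0.11 for Mcm3, -0.00766 for Mcm6, -0.0138 for Mcm7 and -0.11 for Top2a, and WT ATL1222 minus WT vehicle 0.16 for Aurka, 0.25 for Mcm3, 0.28 for Rb1 and -0.15 for Rrm2. With cyclic loess and quantile normalization Top2a became -0.00877 and -0.000838 in KO vehicle, and E2f3 0.0299 and 0.00205 in WT ATL1222. With 1 array left out, KO vehicle minus WT vehicle ran from -0.46 to 0.21 for Aurka, -0.24 to 0.27 for Cdc20, -0.0407 to 1.65 for Mcm10, -0.53 to 0.0226 for Mcm3, -0.0634 to 0.32 for Mcm6, -0.0805 to 0.19 for Mcm7, -0.0945 to 0.46 for Mki67, -0.37 to 0.0402 for Myc, -0.38 to 0.0571 for Pcna, -0.0333 to 0.26 for Rb1 and -0.0623 to 0.0696 for Top2a. WT ATL1222 minus WT vehicle ran from -0.73 to 0.53 for Ccna2, -0.29 to 0.27 for E2f3, -0.11 to 0.0706 for Mcm3, -0.26 to 0.0128 for Mcm7, -0.36 to 0.20 for Mki67, -0.35 to 0.0782 for Pcna, -0.29 to 0.00767 for Rb1 and -0.0629 to 0.42 for Rrm2. The widest of these ranges were for dim genes, Mcm10 in KO vehicle and Ccna2 in WT ATL1222. Dim genes did not all vary widely. In KO vehicle Cdk1 ran from -0.47 to -0.28 and Birc5 from 0.20 to 0.31.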

Other observations

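Cdkn1b, the CDK inhibitor p27, has a dim and a bright probe set that differed in how they followed the replicate number, a contrast chosen after its values were seen. The dim one read 89.1 on replicate 1 and 439 on replicate 2 of WT vehicle, 67.2 and 529 in KO vehicle, and 59.3 and 440 in WT ATL1222. Replicate 2 was above replicate 1 by 4.93, 7.87 and 7.41 times in these groups, a log2 difference of -2.47 ± 0.219 for replicate 1 minus replicate 2 (adjusted p 2.18e-04 by limma with each probe set tested separately). In that fit 314 of 20967 probe sets passed (1.5%), none of them among the 64 probe sets of the 39 genes that it tested. The bright one read from 2212 to 3138 and differed by -0.10 (adjusted p 0.704).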
